A study of Macaca mulatta with 30 samples.

Results

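Fetal lung RNA was compared between 3 rhesus macaque fetuses delivered 6 h after maternal treatment with betamethasone acetate (Beta-Ac) and 3 fetuses of saline-treated mothers. These 6 libraries were chosen by their treatment labels from 15 lung libraries and 30 libraries in all. All animals were labelled wild type, and all mothers received intramuscular injections. Beta-Ac is the slowly released acetate ester of betamethasone and was given at 0.125 mg/kg to the mothers of animals 16-123, 16-131 and 17-254. Controls were animals 15-92, 15-101 and 16-113. For 2 side-by-side comparisons, the 3 lungs taken 4 h after 0.25 mg/kg Celestone (the clinical drug, which holds betamethasone phosphate with the acetate) and the 3 taken 5 d after 0.125 mg/kg Beta-Ac were also used. The lung labels give a gestational day of 124 to 130 for every animal and no delivery interval for saline. Hippocampus libraries with corresponding control animal numbers are labelled with delivery 5 d after saline and with gestational ages of 133, 131 and 135 days. Controls were therefore not matched to the 6 h interval by the labels, and the ages in both sets of labels differ.

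Betamethasone crosses the placenta and binds the glucocorticoid receptor, a cytosolic receptor that moves to the nucleus and regulates genes with its binding elements within hours. Classic targets include feedback inhibitors of the receptor, inhibitors of inflammatory signaling and enzymes of fuel use. In the fetal lung, glucocorticoids are known to promote surfactant lipid synthesis, sodium and water absorption and thinning of the mesenchyme.

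Reads counted on genes numbered 14351859 to 19619580 per library in controls and 19624827 to 28185886 after Beta-Ac. Levels are given in CPM, the reads of a gene scaled to a common normalized library size, and levels of different genes were not compared because no gene lengths were used. Lung identity was checked on markers. NKX2-1, the transcription factor of lung epithelium, lay between 173 and 276 CPM in controls and between 220 and 294 CPM after Beta-Ac. Summed markers of alveolar type 2 cells lay between 8409 and 12975 CPM in controls and between 10344 and 15813 CPM after Beta-Ac. Of 23 marker lists for lung, blood and neighbouring tissues, 20 overlapped between groups and 3 did not, with the summed ciliated airway, secretory and basal airway and neutrophil markers higher in all Beta-Ac animals although single members of each overlapped. None of the 104 tested marker genes passed the edgeR thresholds, while 15 were higher and 1 lower at an unadjusted p under 0.05, and DESeq2 called 3 as higher. Over all tested genes, 11.5% had an unadjusted p under 0.05 in either direction, and DESeq2 called 190 as higher and 57 as lower. In whole tissue, a change in RNA per cell and a change in the share of a cell type cannot be told apart.

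At 6 h Beta-Ac induced known glucocorticoid targets, some enzymes of fuel use and a few vascular genes, and it suppressed fewer genes than it induced. A gene was called when its fold change was at least 1.5, its p was under 0.05 and its Storey q (an adjusted p) was under 0.1 in edgeR. Of 17644 genes tested, 78 (0.442%) were called, with 65 induced (0.368%) and 13 suppressed (0.0737%). The 3 treated animals lay above all controls for each induced gene and below all controls for each suppressed gene. Across all tested genes this held for 9.03% above and 7.28% below. At least 2-fold changes were found for 44 induced and 6 suppressed genes, and at least 4-fold changes for 16 and 2. Of the called genes, 55 had a symbol and 23 had only an Ensembl identifier. The genes nearest the q threshold were FBXO32 (q = 0.0961), ENSMMUG00000005840 (0.0963) and ALG1 (0.0966) inside it, and ENSMMUG00000006231 (0.106), ENSMMUG00000011186 (0.109) and AKAP12 (0.113) outside.

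**Figure D1:**
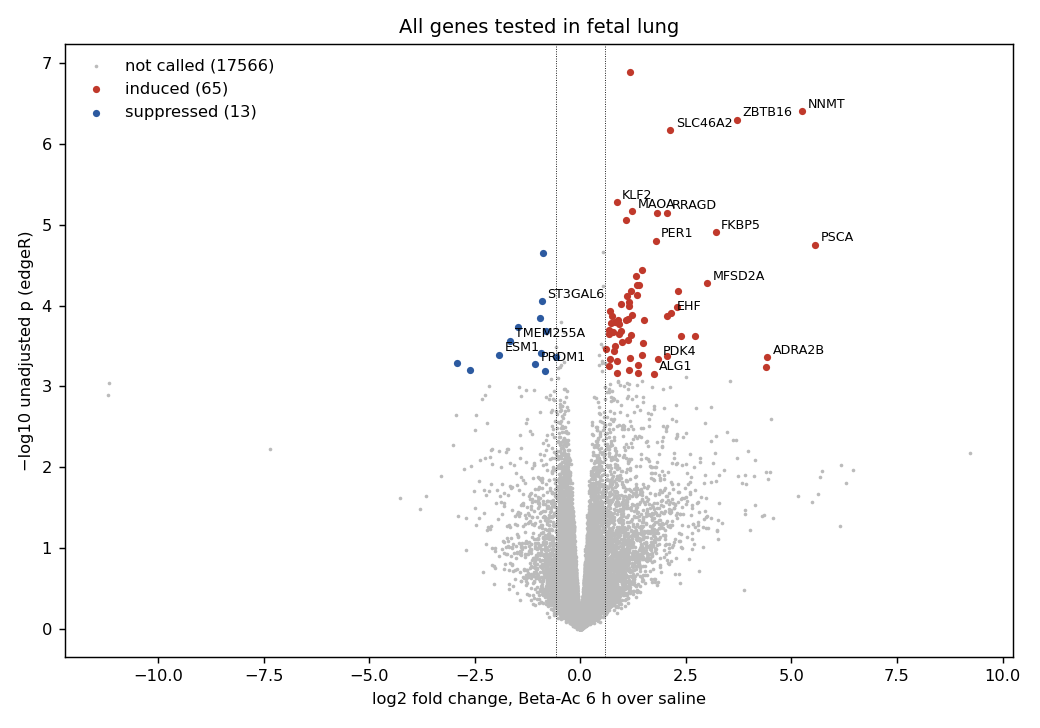
Log2 fold change 6 h after Beta-Ac over saline (horizontal axis) against −log10 of the unadjusted edgeR p (vertical axis) for each tested gene, with dotted lines at the fold change of 1.5. The 65 induced genes (red) outnumber the 13 suppressed genes (blue), and NNMT, ZBTB16 and SLC46A2 lie high on the induced side.

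Known glucocorticoid targets were the list with the most called genes. The lists were chosen with earlier results of these data known, so this ranking is a description. Of 21 tested targets, 8 were induced and 0 suppressed, against 0.368% and 0.0737% of all tested genes. Of these targets, 19 had a log2 fold change above 0 (52.7% of all tested genes did). Their median log2 fold change was 1.09, against 0.02 over all genes. In 15 of the 21, all treated animals lay above all controls, against 9.03% of all tested genes. No target was lower at an unadjusted p under 0.05, and DESeq2 called 14 as induced and 0 as suppressed. The median of the list was 0.77 in 16-123, 0.84 in 16-131 and 1.64 in 17-254, each relative to controls, and it was 0.67 when 17-254 was left out.

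ZBTB16 (ENSMMUG00000007085), a zinc finger transcription factor that is a classic receptor target, had 12.1, 12.3 and 4.12 CPM in control animals 15-92, 15-101 and 16-113, and 101, 86.4 and 183 CPM in 16-123, 16-131 and 17-254. The lowest treated animal was well above the highest control (log2 fold change 3.72, SE 0.43, edgeR q = 0.00224). FKBP5 (ENSMMUG00000011520), a co-chaperone that lowers the receptor's affinity for hormone, had 5.83, 5.27 and 5.72 CPM in controls and 18.9, 31.2 and 106 CPM after Beta-Ac in the same order. Controls were nearly equal, and 17-254 was more than 3 times as high as either other treated animal (3.21, SE 0.49, q = 0.0166). PER1 (ENSMMUG00000021798), a repressor of the circadian clock, had 161, 201 and 96.5 CPM in controls and 454, 505 and 619 CPM after Beta-Ac, without overlap (1.79, SE 0.28, q = 0.0191). KLF15 (ENSMMUG00000003721), a transcription factor of amino acid and fat metabolism, had 21.9, 23.0 and 18.2 CPM in controls and 38.9, 49.0 and 70.2 CPM after Beta-Ac (1.33, SE 0.23, q = 0.0355). All 4 genes were highest in 17-254. Of these 4, the call for ZBTB16 held with each animal left out, that for FKBP5 was lost without control 15-92, that for PER1 without 15-92 or 17-254, and that for KLF15 without 15-92, 16-113 or 17-254.

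NFKBIA (ENSMMUG00000020374), which holds NF-κB in the cytoplasm, had 138, 121 and 113 CPM in controls and 172, 224 and 342 CPM after Beta-Ac, with the lowest treated animal 16-123 above the highest control 15-92 (0.99, SE 0.21, q = 0.0656) and a call lost without any control or 17-254. The other induced targets were PDK4, MAOA and GLUL, enzymes described with fuel metabolism. Among targets that were not called, CEBPD, a transcription factor of the acute phase response, had 36.8, 32.6 and 24.4 CPM in controls and 52.8, 55.2 and 155 CPM after Beta-Ac (1.49, SE 0.37, q = 0.130). IRS2, an adaptor of the insulin receptor, differed by 1.44 (SE 0.41, q = 0.179), and CRISPLD2, a secreted protein of lung mesenchyme, by 0.97 (SE 0.25, q = 0.142). For these 3 genes the treated animals lay above all controls, but the q threshold was missed, with CEBPD and IRS2 far higher in 17-254 than in the other treated animals. SGK1, a kinase that keeps sodium channels at the membrane, overlapped between groups, with 89.6, 66.6 and 101 CPM in controls and 65.3, 168 and 104 CPM after Beta-Ac (0.39, SE 0.41, q = 0.565). TSC22D3, DUSP1 and KLF9 were not matched to an identifier.

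**Figure D2:**
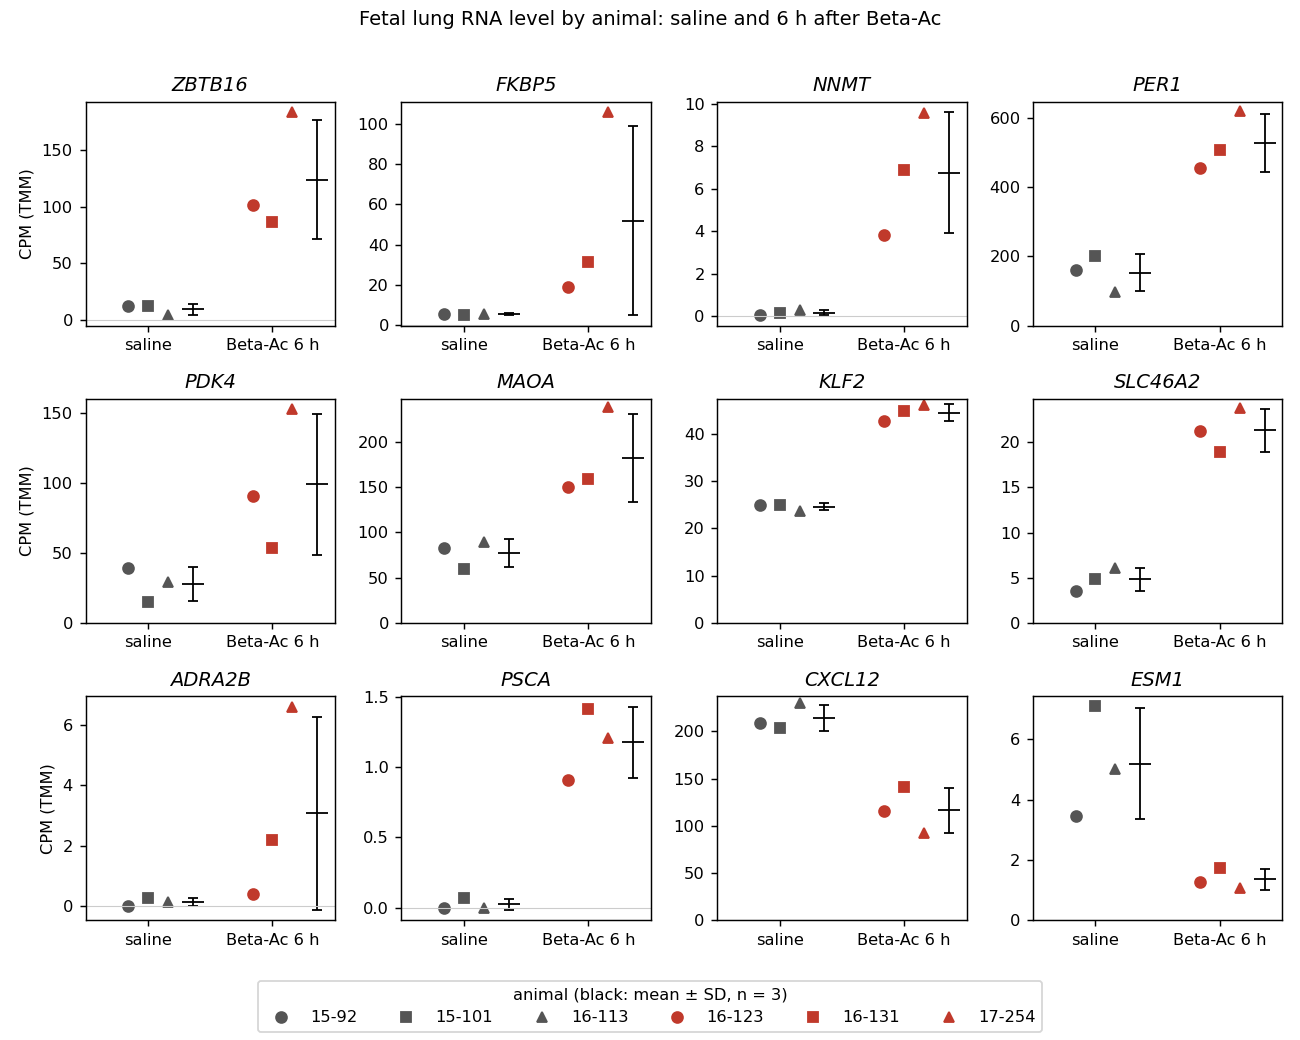
RNA levels in CPM after TMM normalization (vertical axes, linear) of 12 called genes in each of the 3 saline (grey) and 3 Beta-Ac 6 h animals (red), with the mean ± SD of each group in black. FKBP5, PDK4, MAOA and ADRA2B were highest in 17-254, while the treated values of KLF2 stayed between 42.6 and 46.0 CPM.

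None of the tested genes for the receptor, its chaperones and coregulators and steroid metabolism was called. HSD11B1, which makes cortisol from cortisone, and HSP90AA1, a chaperone, were not matched and so not tested. Of 17 tested genes, edgeR and DESeq2 each called 0, and the median log2 fold change was 0.02. At an unadjusted p under 0.05, 4 were higher and none was lower, against 11.5% of all genes in either direction. NR3C1, the receptor itself, had 74.2, 90.8 and 117 CPM in controls and 88.8, 75.7 and 87.6 CPM after Beta-Ac (-0.16, SE 0.15, q = 0.537). HSD11B2, which inactivates cortisol, had 43.5, 43.6 and 42.9 CPM in controls and 38.4, 57.5 and 28.1 CPM after Beta-Ac (-0.07, SE 0.26, q = 0.719). Treated values of HSD11B2 lay on both sides of the controls. The smallest p in this list belonged to NCOA3, a coactivator of nuclear receptors (0.46, SE 0.14, q = 0.224), HSP90AB1, the chaperone that holds the receptor (0.43, SE 0.16, q = 0.272), and DNAJB1, a co-chaperone (0.37, SE 0.15, q = 0.286).

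Genes of fuel use were induced in part. Of 35 genes of fasting and intermediary metabolism, 5 were induced and 0 suppressed, against 0.368% and 0.0737% of all tested genes. Their median log2 fold change was 0.22. At an unadjusted p under 0.05, 12 were higher and 1 lower, against 11.5% of all genes in either direction. DESeq2 called 7 as induced and 0 as suppressed. NNMT (ENSMMUG00000007086), which methylates nicotinamide and so consumes methyl groups, had 1, 2 and 6 reads in controls, or 0.0595, 0.137 and 0.301 CPM, and 3.85, 6.90 and 9.55 CPM after Beta-Ac (5.25, SE 0.59, q = 0.00224). NNMT was close to undetected in controls and present in every treated animal, and its call held with each animal left out. NNMT is the neighbour of ZBTB16 in the RefSeq annotation used for gene order. PDK4 (ENSMMUG00000021389), the kinase that turns off pyruvate dehydrogenase and spares glucose, had 39.0, 14.6 and 29.5 CPM in controls and 90.9, 53.4 and 153 CPM after Beta-Ac (1.83, SE 0.40, q = 0.0810). MAOA (ENSMMUG00000019489), a mitochondrial oxidase of monoamines, had 82.9, 59.6 and 89.5 CPM in controls and 150.0, 159 and 238 CPM after Beta-Ac (1.24, SE 0.18, q = 0.0119). The call for MAOA held with each animal left out, whereas that for PDK4 was lost without any 1 of the 3 controls, 16-123 or 17-254.

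HK2 (ENSMMUG00000011845), the hexokinase that traps glucose in muscle, fat and growing tissues, had 13.5, 14.2 and 17.7 CPM in controls and 41.3, 32.6 and 33.1 CPM after Beta-Ac (1.23, SE 0.24, q = 0.0523). Unlike most induced genes, HK2 was highest in 16-123. GLUL (ENSMMUG00000022884), glutamine synthetase, had 245, 239.6 and 270.1 CPM in controls and 482, 399 and 723 CPM after Beta-Ac (1.09, SE 0.21, q = 0.0523). FOXO3, a transcription factor of the fasting response, differed by 1.32 (SE 0.33, q = 0.130) and was not called. ACSL4 (ENSMMUG00000004188), which activates long polyunsaturated fatty acids and is outside the list, had 105, 103 and 104 CPM in controls and 228, 177 and 290.4 CPM after Beta-Ac (1.16, SE 0.21, q = 0.0461). For HK2, GLUL and ACSL4 the calls were each lost without 15-92, 15-101 or 17-254, and also without 16-123 for HK2 and without 16-113 for GLUL and ACSL4.

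The tested surfactant proteins (SFTPB, SFTPC and SFTPD) were not called, and 2 lipid genes were induced, while SFTPA1 was not matched and so not tested. Of 20 surfactant genes, 2 were induced and 0 suppressed, against 0.368% and 0.0737% of all tested genes. Their median log2 fold change was 0.22. At an unadjusted p under 0.05, 7 were higher and none was lower, against 11.5% of all genes in either direction. DESeq2 called 5 as induced and 0 as suppressed. MFSD2A (ENSMMUG00000011264), which imports lysophosphatidylcholine with polyunsaturated fatty acids, had 1.55, 1.37 and 2.96 CPM in controls and 12.4, 10.4 and 25.7 CPM after Beta-Ac (3.01, SE 0.53, q = 0.0383). Its call was lost without 15-92, 15-101 or 17-254. CHKA (ENSMMUG00000023192), choline kinase, which starts phosphatidylcholine synthesis, had 65.6, 65.8 and 71.1 CPM in controls and 90.1, 85.4 and 131 CPM after Beta-Ac (0.60, SE 0.13, q = 0.0737), a 1.51-fold change close to the fold threshold and a call lost without any control or 17-254. SFTPB, whose protein spreads the surfactant film, had 3200.2, 3121 and 3775 CPM in controls and 4339, 3023 and 5947 CPM after Beta-Ac (0.40, SE 0.21, q = 0.369). SFTPC, specific to alveolar type 2 cells, had 2708, 2729.8 and 5096 CPM in controls and 7053, 3912 and 5925 CPM after Beta-Ac (0.68, SE 0.27, q = 0.292). For both surfactant proteins the groups overlapped through treated animal 16-131. ABCA3, the lipid pump of lamellar bodies, did not overlap but was not called (0.69, SE 0.19, q = 0.179).

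Of 20 ion and water transport genes, edgeR called 0. Their median log2 fold change was 0.29, or 0.15 without control 15-92, and 7 were higher and 1 lower at an unadjusted p under 0.05, against 11.5% of all genes in either direction. DESeq2 called 2 as induced. SLC26A9, a chloride channel of airway epithelium, differed by 1.12 (SE 0.32, q = 0.180). SCNN1G, a subunit of the epithelial sodium channel that clears lung liquid, had 39.4, 47.6 and 41.4 CPM in controls and 54.6, 88.1 and 122 CPM after Beta-Ac (1.05, SE 0.32, q = 0.215). For both genes the treated animals lay above all controls.

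Outside the lists, EHF and PSCA were among the induced genes of largest fold, while none of the marker lists for lung epithelium, alveolar or airway cells held a gene called by edgeR. EHF (ENSMMUG00000005927), an ETS transcription factor of epithelium, had 3.51, 4.52 and 3.16 CPM in controls and 11.4, 14.6 and 23.3 CPM after Beta-Ac (2.14, SE 0.41, q = 0.0523), and its call was lost without any 1 control or 17-254. PSCA (ENSMMUG00000028899), a membrane-anchored protein of epithelia, had 0, 1 and 0 reads in controls and 18, 40 and 25 reads after Beta-Ac. Relative to the depth of each group this was a 62.0-fold difference, with a 95% exact interval of 10.8 to 2477 that covers counting error only (edgeR q = 0.0198). Its fitted fold change, which the plots show, depends on the prior count. PSCA passed the filter of at least 7 reads in at least 3 libraries only through the treated animals, so its q is not support for a difference, it could not be tested without any of them, and its call was lost without 15-92 and by DESeq2. At 4 h after the clinical drug PSCA had 0.0926, 0 and 0 CPM, all below the Beta-Ac animals. Summed airway markers were also higher in all treated animals. Summed ciliated airway markers lay between 16.3 and 70.2 CPM in controls and between 76.9 and 111 CPM after Beta-Ac, and summed secretory and basal airway markers between 50.8 and 158 CPM and between 185 and 446 CPM. Of the single ciliated markers, 5 were higher in all treated animals, against 9.03% of all tested genes, and DNAH9 overlapped. SCGB1A1, the secretoglobin of club cells, overlapped, with 26.5, 121 and 2.66 CPM in controls and 118, 75.3 and 125 CPM after Beta-Ac, and so did MUC5B, an airway mucin. SCGB3A2, a related secretoglobin, did not, with 41.8, 31.2 and 47.1 CPM in controls and 57.8, 125 and 309 CPM after Beta-Ac, and it was not called (log2 fold change 2.03). Without SCGB3A2, a sum formed after seeing the data, the secretory and basal markers overlapped, with 3.71 to 127 CPM in controls and 82.0 to 137 CPM after Beta-Ac. The part of airway content in the EHF and PSCA differences was not tested.

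SYT8 (ENSMMUG00000004837), a synaptotagmin, had 4.76, 7.53 and 6.53 CPM in controls and 15.4, 13.4 and 19.2 CPM after Beta-Ac (1.35, SE 0.24, q = 0.0383). TNNI2 (ENSMMUG00000004838), troponin I of fast skeletal muscle, had 3.39, 4.59 and 3.92 CPM in controls and 10.3, 7.93 and 9.31 CPM after Beta-Ac (1.21, SE 0.22, q = 0.0405). These genes overlap in the RefSeq annotation, so reads of one may have been counted for the other. Summed skeletal muscle markers lay between 1.19 and 2.33 CPM in controls and between 1.97 and 3.18 CPM after Beta-Ac, with overlap between groups.

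Vascular genes moved in both directions. Of 40 genes of vascular development, 4 were induced and 1 suppressed, against 0.368% and 0.0737% of all tested genes. Their median log2 fold change was -0.07. At an unadjusted p under 0.05, 5 were higher and 6 lower, against 11.5% of all genes in either direction. DESeq2 called 4 as induced and 2 as suppressed. KLF2 (ENSMMUG00000028855), the transcription factor that endothelium expresses under laminar flow, had 24.9, 25.0 and 23.6 CPM in controls and 42.6, 44.7 and 46.0 CPM after Beta-Ac. Animals of each group were nearly equal, and the change was small but well beyond their spread (0.86, SE 0.12, q = 0.0119), with a call that held with each animal left out. ADAMTS1 (ENSMMUG00000013407), a secreted protease that cleaves versican and binds VEGF, had 102, 136 and 121 CPM in controls and 239, 249 and 504 CPM after Beta-Ac (1.47, SE 0.25, q = 0.0321). THBS1 (ENSMMUG00000006035), an antiangiogenic matrix protein, had 91.9, 97.3 and 84.1 CPM in controls and 142, 179.8 and 284 CPM after Beta-Ac (1.15, SE 0.22, q = 0.0475). HEY1 (ENSMMUG00000002740), a Notch target that represses transcription, had 11.4, 22.2 and 19.0 CPM in controls and 37.1, 31.9 and 45.6 CPM after Beta-Ac (1.12, SE 0.22, q = 0.0523). All 3 genes were highest in 17-254, and no treated animal overlapped with controls. With single animals left out, the call for ADAMTS1 was lost without 15-92, that for HEY1 without 15-92, 16-113 or 17-254, and that for THBS1 without any control or 17-254.

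ESM1 (ENSMMUG00000020169), or endocan, secreted by sprouting endothelial tip cells, had 3.45, 7.12 and 5.02 CPM in controls and 1.26, 1.73 and 1.06 CPM after Beta-Ac (-1.93, SE 0.42, q = 0.0802). All treated animals lay below the lowest control, but the call was lost without any control, 16-123 or 17-254. The VEGF pathway genes NRP1, KDR and VEGFA were not called. NRP1, a VEGF coreceptor, had 908, 773 and 943 CPM in controls and 754, 627 and 498 CPM after Beta-Ac (-0.48, SE 0.15, q = 0.223), and KDR, the main VEGF receptor, differed by -0.30 (SE 0.13, q = 0.318). VEGFA, the ligand, differed by -0.12 (SE 0.11, q = 0.529). Summed endothelial markers overlapped, with 3251 to 3862 CPM in controls and 3462 to 3578 CPM after Beta-Ac.

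Immune genes moved in both directions. Of 33 genes of immune activation, NFKBIA, PRKCQ and IL1R1 were induced and CXCL12 was suppressed, against 0.442% of all genes called, with a median log2 fold change of -0.04. At an unadjusted p under 0.05, 5 were higher and 4 lower, against 11.5% of all genes in either direction. DESeq2 called 3 as induced and 1 as suppressed. PRKCQ (ENSMMUG00000020776), a protein kinase C of T cell activation, had 21.8, 18.8 and 19.6 CPM in controls and 28.4, 34.2 and 41.0 CPM after Beta-Ac (0.78, SE 0.16, q = 0.0587). IL1R1 (ENSMMUG00000020737), the interleukin-1 receptor, had 40.3, 35.1 and 44.3 CPM in controls and 63.7, 62.7 and 69.0 CPM after Beta-Ac (0.70, SE 0.16, q = 0.0810). CXCL12 (ENSMMUG00000012181), a chemokine that retains leukocytes and guides vessels, had 209, 203 and 230.1 CPM in controls and 116, 141 and 92.2 CPM after Beta-Ac (-0.88, SE 0.14, q = 0.0216). All treated animals were well below all controls for CXCL12, and with single animals left out the call was lost without 15-92 or 17-254. The calls for PRKCQ and IL1R1 were lost without any control or 17-254, and for IL1R1 also without 16-123. CCL2, a monocyte chemokine, had 13.5, 14.4 and 10.3 CPM in controls and 7.59, 8.95 and 2.80 CPM after Beta-Ac without a call (-0.98, SE 0.40, q = 0.295). Summed neutrophil markers lay between 10.8 and 15.4 CPM in controls and between 22.6 and 30.0 CPM after Beta-Ac, and their part in these differences was not tested. Much of this sum came from CSF3R, with 6.48, 7.80 and 4.92 CPM in controls and 16.7, 17.2 and 11.1 CPM after Beta-Ac. MPO did not overlap either but had few reads, while S100A9 and CXCR2 overlapped, and none of these genes was called. Summed T cell markers (84.7 to 102 and 73.9 to 123 CPM) and macrophage markers (75.2 to 128 and 96.0 to 115 CPM) overlapped.

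In the circadian clock, PER1 alone was called among 17 genes, and the median log2 fold change was -0.04. DESeq2 called 2 genes as induced and 0 as suppressed. At an unadjusted p under 0.05, 4 genes were higher and 4 lower, against 11.5% of all genes in either direction. NFIL3, a repressor of clock output, differed by 0.68 (SE 0.20, q = 0.194). DBP, an activator driven by the clock, had 29.6, 29.6 and 28.0 CPM in controls and 20.6, 22.0 and 13.5 CPM after Beta-Ac (-0.64, SE 0.21, q = 0.244). NR1D1, a repressor of the core activator, had a log2 fold change of -0.89, TEF, a factor related to DBP, -0.77, and CIART, a repressor, -0.41. ARNTL, the core activator itself, had 0.72. Across the list the treated animals lay above all controls for 5 genes and below all controls for 5. Over all tested genes this held for 9.03% above and 7.28% below. Besides PER1 none of the clock genes without overlap passed the q threshold. The time of day of delivery was not given in the labels used here, so treatment and clock time cannot be told apart for these genes.

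Other programs held no called gene in edgeR. Among 13 immediate early genes the median log2 fold change was 0.36, and DESeq2 called 2. At an unadjusted p under 0.05, 3 were higher, against 11.5% of all genes in either direction. KLF6 (1.05, SE 0.29, q = 0.179) and FOSL2 (0.93, SE 0.22, q = 0.119) were the nearest to a call. The median of this list was 0.02 without 17-254. Among 48 signals of lung morphogenesis, which include the Wnt, FGF, BMP, TGF-β and hedgehog pathways, the median was -0.04, with 4 higher and 3 lower at an unadjusted p under 0.05, near the 11.5% of all genes, and 1 called by DESeq2. ETV5, an FGF-driven factor of alveolar type 2 cells, was nearest to a call, with 59.8, 39.6 and 59.0 CPM in controls and 117, 73.9 and 103 CPM after Beta-Ac (0.89, SE 0.21, q = 0.113). Among 31 matrix and elastic fiber genes the median was -0.05, and DESeq2 called 1. At an unadjusted p under 0.05, 2 were higher and 1 lower, against 11.5% of all genes in either direction. COL5A1, a chain of type V collagen, differed by 1.06 (SE 0.33, q = 0.219) and FN1, fibronectin, by -0.39 (SE 0.13, q = 0.239). LAMB1 (ENSMMUG00000006567), the laminin β1 chain of basement membranes and outside these lists, was induced, with 724, 692 and 729.8 CPM in controls and 1146, 1187 and 1856 CPM after Beta-Ac (0.97, SE 0.18, q = 0.0471).

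For the next 3 lists, the share of all tested genes with an unadjusted p under 0.05 in either direction was 11.5%. Among 27 cell cycle genes the median log2 fold change was -0.04, 1 was lower and 0 higher at an unadjusted p under 0.05, and DESeq2 called 0. RB1, the brake on entry into S phase, differed by -0.40 (SE 0.14, q = 0.246), and CCND1, cyclin D1, by -0.35 (SE 0.18, q = 0.368). Among 16 antioxidant enzymes the median was 0.04, 1 was lower at an unadjusted p under 0.05 (PRDX3, a mitochondrial peroxidase, -0.26, SE 0.11, q = 0.304), and DESeq2 called 0. Among 16 brakes on signaling the median was 0.07, with 3 higher and 1 lower at an unadjusted p under 0.05 and 1 called by DESeq2. DEPTOR, an inhibitor of mTOR, was nearest to a call (1.04, SE 0.25, q = 0.119).

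**Figure D3:**
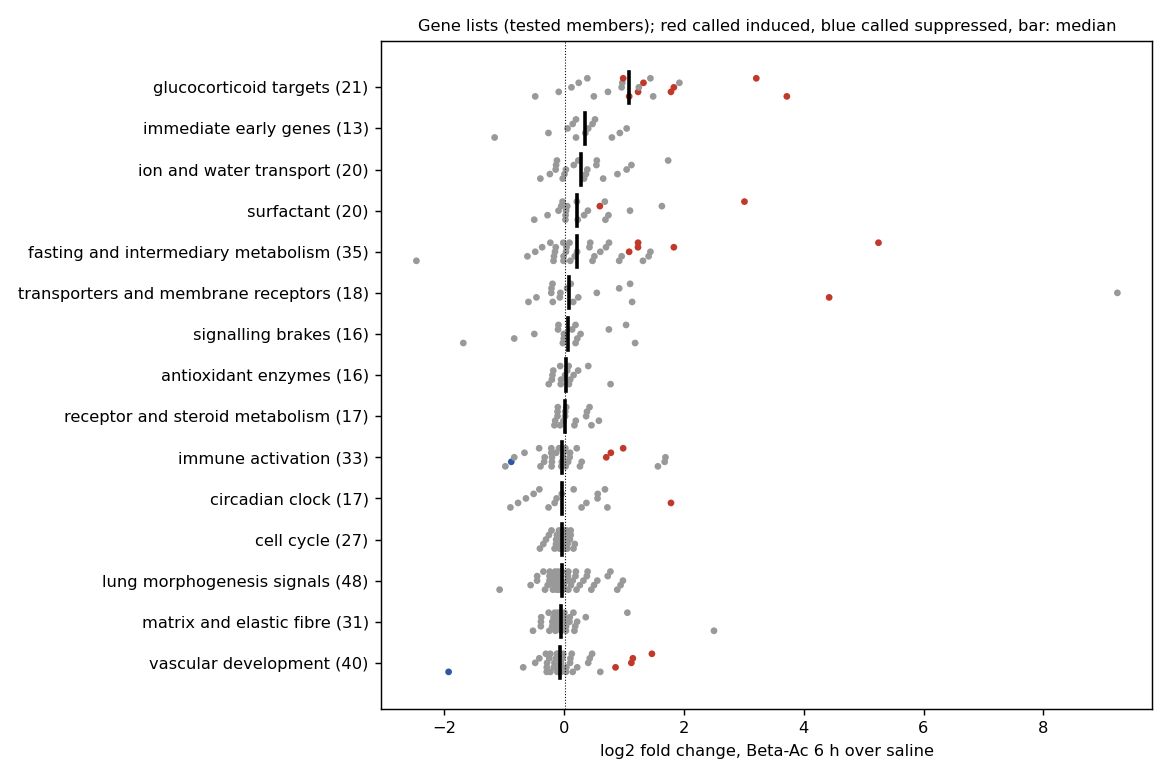
Log2 fold change 6 h after Beta-Ac over saline for each tested gene of 15 lists (points, red where induced and blue where suppressed), with the median of each list as a bar and the number tested in brackets. The median of glucocorticoid targets (1.09) lies apart from those of the other 14 lists, which lie between -0.07 and 0.36. The lists were chosen with earlier results of these data known.

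Of 18 transporters and membrane receptors, 1 was induced, against 0.368% of all tested genes, and the median log2 fold change was 0.08. SLC16A12, a creatine transporter, was nearest to a call among the others (2.15-fold, log2 SE 0.28, q = 0.130). ADRA2B (ENSMMUG00000011842), an α2-adrenergic receptor, had 0, 0.274 and 0.151 CPM in controls and 0.405, 2.19 and 6.61 CPM after Beta-Ac (4.42, SE 0.97, q = 0.0810). These values rest on 7 reads in all controls and on 8, 62 and 137 reads in the treated animals. ADRA2B thus differed widely among treated animals, with 17-254 highest and 16-123 close to controls, and the call was lost without any control or 17-254. SLC6A20, a transporter of proline and related amino acids, had 0 reads in all controls and 142, 71 and 1 reads after Beta-Ac, at least 53.3-fold higher if the 3 controls together are set to the floor of 3 reads (q = 0.226). It was not called, and animal 17-254, which was highest for most induced genes, was lowest for this one. SLC46A2 (ENSMMUG00000000568), a solute carrier outside the list, had 3.57, 4.86 and 6.07 CPM in controls and 21.2, 19.0 and 23.8 CPM after Beta-Ac. The treated animals were alike, and the call held with each animal left out (2.13, SE 0.25, q = 0.00227).

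Further induced genes fell outside the lists. RRAGD (ENSMMUG00000015262), a Rag GTPase that brings mTOR to the lysosome, had 5.89, 6.02 and 5.87 CPM in controls and 20.5, 20.2 and 32.7 CPM after Beta-Ac (2.04, SE 0.30, q = 0.0119), a call lost without 15-92. HIF3A, a negative regulator of hypoxia-inducible factors, was induced by 1.35 (SE 0.24, q = 0.0422), and FBXO32, the ubiquitin ligase atrogin-1 of muscle wasting, by 1.37 (SE 0.31, q = 0.0961). MERTK, a receptor for the clearance of dying cells, was induced 2.30-fold (log2 SE 0.24, q = 0.0594), PIK3R1, a regulatory subunit of PI3 kinase, by 0.93 (SE 0.19, q = 0.0588), and BCL2L1, an inhibitor of apoptosis, by 0.72 (SE 0.14, q = 0.0523). ALG1 (ENSMMUG00000007494), a mannosyltransferase of N-glycan synthesis, had 24.2, 24.8 and 21.1 CPM in controls and 67.7, 102 and 64.2 CPM after Beta-Ac (1.74, SE 0.40, q = 0.0966), and it was no longer called with any single animal left out.

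Of the 17 induced identifiers without a symbol, 3 kept their call with each animal left out. ENSMMUG00000001030 had the lowest q of all genes, with 20.3, 21.2 and 19.2 CPM in controls and 44.0, 43.7 and 49.7 CPM after Beta-Ac (1.18, SE 0.12, q = 0.00172). ENSMMUG00000008207 had 195, 189 and 188 CPM in controls and 451, 493 and 1074 CPM after Beta-Ac (1.82, SE 0.26, q = 0.0119). ENSMMUG00000003324 was induced by 1.09 (SE 0.16, q = 0.0130).

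Suppressed genes were fewer and mostly changed less. TMEM255A, a membrane protein, had 15.5, 11.6 and 14.2 CPM in controls and 4.91, 5.87 and 2.12 CPM after Beta-Ac (-1.67, SE 0.35, q = 0.0650). PRDM1 (ENSMMUG00000021401), or Blimp-1, a repressor that directs terminal differentiation, had 20.6, 22.2 and 16.4 CPM in controls and 12.3, 9.59 and 6.46 CPM after Beta-Ac (-1.06, SE 0.24, q = 0.0866). ST3GAL6, a sialyltransferase that helps make selectin ligands, had 13.6, 18.0 and 14.6 CPM in controls and 8.60, 9.45 and 6.46 CPM after Beta-Ac (-0.91, SE 0.17, q = 0.0461). All 3 were lowest in 17-254. SLITRK5, a membrane protein of neuronal contacts, fell by 0.84 (SE 0.19, q = 0.0933), and MED21, a Mediator subunit, fell by 0.59 (SE 0.13, q = 0.0810). For the 5 genes, each call was lost without 15-92, 15-101 or 17-254, and all but that of ST3GAL6 also without 16-113. The calls for TMEM255A, SLITRK5 and MED21 were also lost without 16-123, and that for PRDM1 without 16-131. The largest decreases were in identifiers without a symbol. ENSMMUG00000016305 had 15.5, 11.0 and 2.11 CPM in controls and 1.32, 1.63 and 0.772 CPM after Beta-Ac (-2.92, SE 0.65, q = 0.0859). ENSMMUG00000005891 had 5.71, 5.41 and 1.15 CPM in controls and 0.911, 0.566 and 0.530 CPM after Beta-Ac (-2.61, SE 0.60, q = 0.0931). In both, control 16-113 was closer to the treated animals than to the other controls. Its number begins with 16, like those of 2 treated animals, while the other controls begin with 15. Animal series and treatment thus largely coincide for every gene. For these 2 identifiers they cannot be told apart, and for the other genes only control 16-113 separates them. With the animal number series as a term in the fit, the log2 fold changes of the 2 identifiers were -0.75 and -0.79, and only 3 of the 78 called genes stayed called.

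By 5 d after Beta-Ac several of the most induced genes were back near the control level, while others lay above the control range without a call. The comparisons share the controls or the 6 h animals, so their values are given side by side. The genes followed here were chosen by their 6 h values, which favours a larger change at 6 h. Over the 65 induced genes the median log2 fold change over controls was 1.21 at 6 h and 0.18 at 5 d after Beta-Ac, and 1.67 at 4 h after the clinical drug. Over the 13 suppressed genes it was -0.96, -0.43 and -0.89. At 5 d, ZBTB16 had 10.2, 13.4 and 12.8 CPM in animals 16-128, 16-130 and 16-136, FKBP5 had 5.78, 6.48 and 6.19 CPM, and NNMT had 0.195, 0.424 and 0.516 CPM. These values lie at or just above the control range. Tested directly, 46 genes (0.261%) differed between 6 h and 5 d after Beta-Ac, 0.227% higher and 0.034% lower at 6 h, among them ZBTB16 (log2 difference 3.35, SE 0.41, q = 0.00624), NNMT (4.14, SE 0.51, q = 0.00624), ADAMTS1 (1.81, SE 0.25, q = 0.0132) and MAOA (1.27, SE 0.18, q = 0.0132). The count of 46 was 98 without 16-131, 11 without 17-254, and 8, 10 and 5 without 16-128, 16-130 and 16-136. SLC46A2 still had 10.6, 20.1 and 13.0 CPM at 5 d, each above all controls, and its difference between the times was not called (0.55, q = 0.509). HK2 had 24.7, 30.1 and 39.8 CPM at 5 d (0.18, q = 0.793), and MFSD2A 11.6, 8.57 and 4.76 CPM (0.96, q = 0.579). EHF had 17.7, 5.98 and 7.78 CPM at 5 d (0.65, q = 0.639), and KLF2 35.2, 33.0 and 36.4 CPM (0.35, q = 0.375). In these 5 genes all 5 d animals lay above all controls, although none was called at 5 d. The share of all tested genes with such a separation at 5 d was not determined, so it only describes these genes.

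The clinical drug at 4 h was given at a higher dose, was sampled earlier and was studied in animals numbered from 15, so drug, dose, time and animal series cannot be told apart. Directly compared, 1189 of all tested genes (6.74%) differed between both groups, 4.11% higher and 2.62% lower after Beta-Ac, a count that was 1971 without 15-81 and 667 without 15-85. FKBP5 had 219, 120.2 and 179 CPM in animals 15-81, 15-85 and 15-97, each above all Beta-Ac animals at 6 h (log2 difference of Beta-Ac from the clinical drug -1.73, SE 0.44, q = 0.0268). RRAGD had 88.0, 69.5 and 65.1 CPM (-1.60, SE 0.28, q = 0.00530), PDK4 359, 238 and 278 CPM (-1.56, SE 0.39, q = 0.0268) and MFSD2A 94.6, 32.3 and 39.2 CPM (-1.79, SE 0.46, q = 0.0286). CHKA had 204, 189 and 196 CPM (-0.94, q = 0.00160) and PRKCQ had 67.6, 78.7 and 65.1 CPM (-1.03, q = 0.00313). In these 6 genes the clinical drug group was higher in every animal. ZBTB16 (267, 125 and 216 CPM), NNMT (14.2, 11.4 and 13.2 CPM) and PER1 (836, 695 and 732 CPM) did not pass the test of the difference, with q of 0.183, 0.140 and 0.182 and log2 differences of -0.71 (SE 0.37), -0.93 (SE 0.42) and -0.52 (SE 0.27). ALG1 was higher after Beta-Ac than after the clinical drug (62.1, 28.9 and 20.3 CPM after the clinical drug, 1.06, SE 0.39, q = 0.0899).

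**Figure D4:**
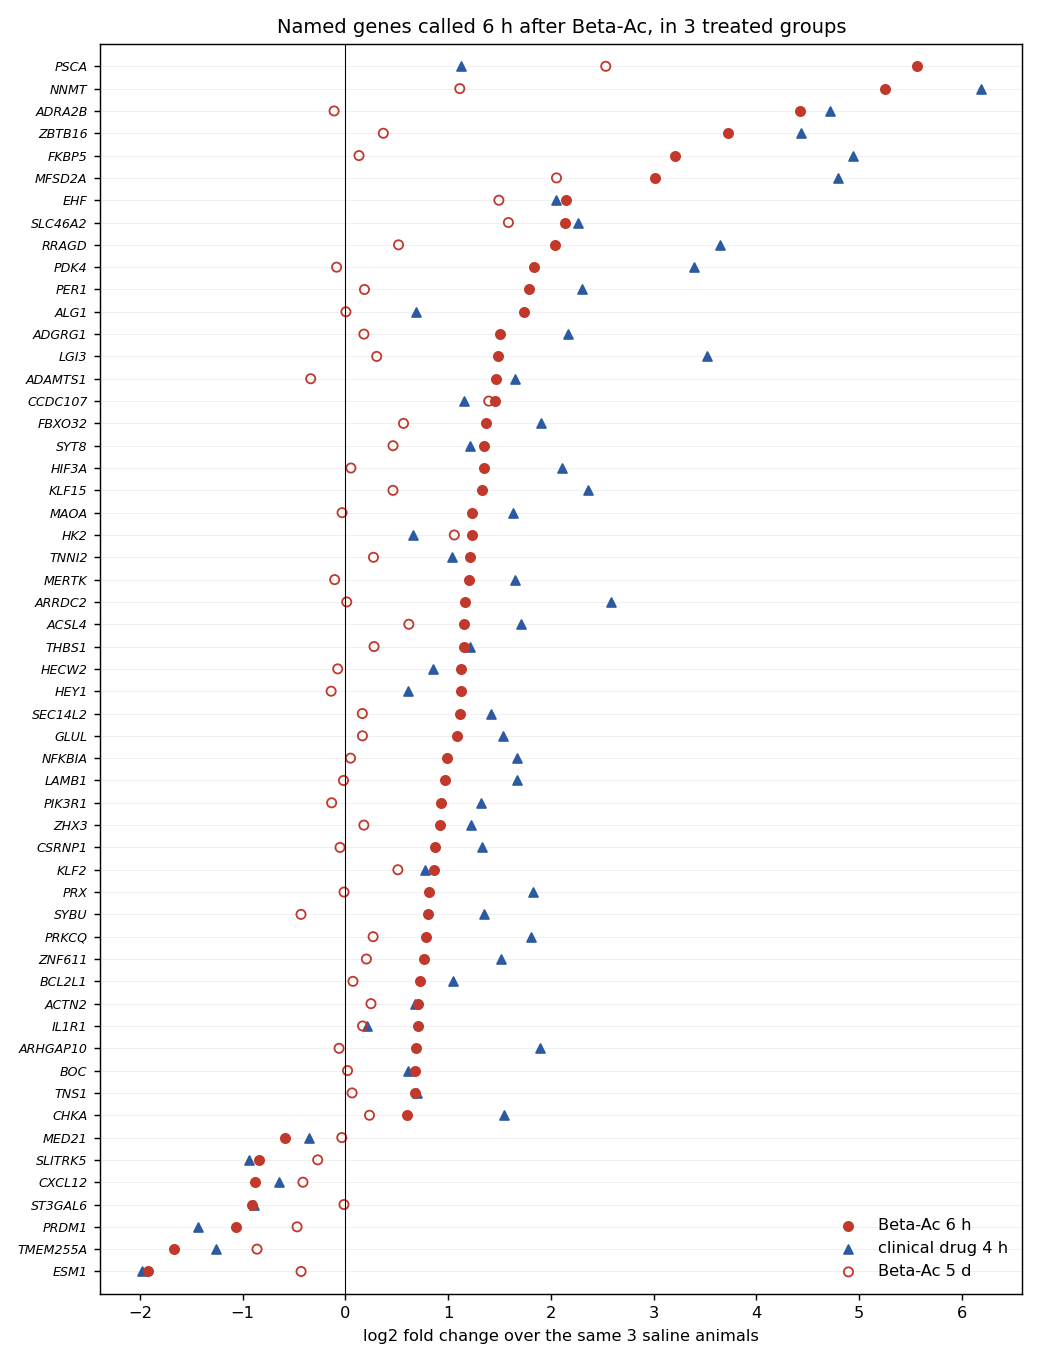
Log2 fold change over the same 3 saline animals (horizontal axis) for 55 named genes called 6 h after Beta-Ac, shown for Beta-Ac at 6 h (filled circles), the clinical drug at 4 h (triangles) and Beta-Ac at 5 d (open circles). For FKBP5 the values are 3.21, 4.94 and 0.13, and for SLC46A2 they are 2.13, 2.26 and 1.59.

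Among induced genes, 17-254 was most often the highest of the 3 treated animals. It was the highest treated animal for 57 of the 65 induced genes, against 5 for 16-131 and 3 for 16-123, whereas it was the highest for 40.2% of all tested genes. Relative to controls, the median log2 difference over the induced genes was 1.60 in 17-254, 1.05 in 16-123 and 1.04 in 16-131. For the suppressed genes it was -1.23, -1.25 and -0.95. Its depth (20735415 reads) lay between those of the other 2, and its summed red cell markers were the highest of the 6 animals, with 845 CPM against 47.1 to 414 CPM in the others. The part of blood content in these values was not tested.

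The number of called genes depended on single animals. It was 12 without 17-254, 95 without 16-123 and 211 without 16-131, and it was 9 without control 15-92, 26 without 15-101 and 48 without 16-113. Of the 78 genes called with all animals, 9 to 72 were among these. Called with each animal left out were 8 genes, namely ZBTB16, NNMT, SLC46A2, MAOA, KLF2 and the 3 identifiers ENSMMUG00000001030, ENSMMUG00000008207 and ENSMMUG00000003324. FKBP5, ADAMTS1 and RRAGD were called in 5 of the 6 fits. With the animal number series (15, or 16 and 17) as a term in the fit, which was added after seeing the data, 4 genes were called, 3 of them among the 78 (ZBTB16, PER1 and ENSMMUG00000001030), while all 78 kept their sign. MAOA, FKBP5, ADAMTS1, KLF15, CXCL12 and ENSMMUG00000008207 were among the genes no longer called with only the saline and Beta-Ac 6 h libraries in the fit, which called 19.

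**Figure D5:**
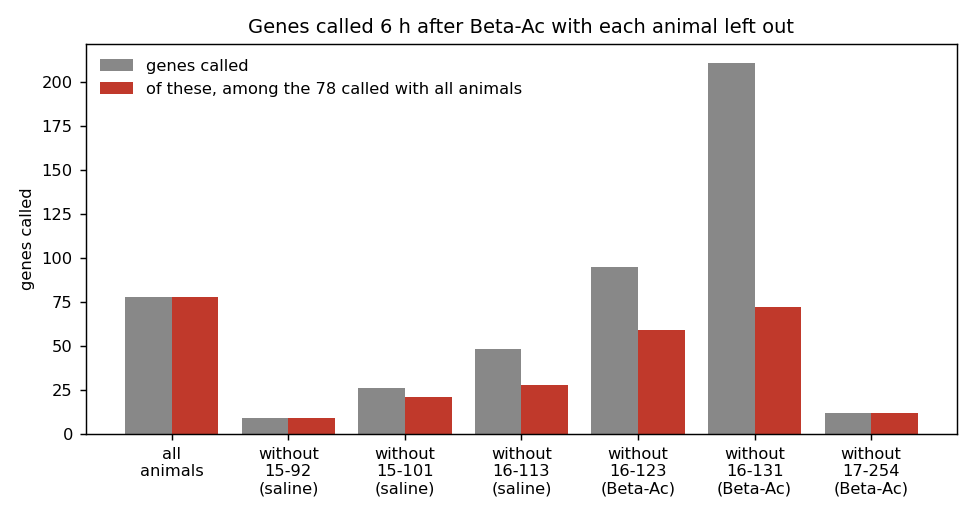
Number of genes called 6 h after Beta-Ac against saline (vertical axis) with all animals and with each of the 6 animals left out, with those also called with all animals in red. The count falls from 78 to 9 without control 15-92 and rises to 211 without 16-131.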

How the data were processed

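Per the labels and the study's methods, lung RNA was sequenced as 75 bp reads, which the authors aligned to the MMUL1.0 assembly and deposited as raw read counts per Ensembl gene. The submitters' processing notes list Bowtie 1.2.1.1 and featureCounts 1.5.1. Each library is a separate fetus. Symbols (15769 of 30246 identifiers) and gene neighbours came from NCBI tables on another assembly, so no coordinates are given. Hippocampus counts were not used.

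The 17644 genes that reached 7 reads in 3 or more libraries were tested. All 15 lung libraries (5 groups) were normalized by TMM and fitted in 1 edgeR 4.0.16 quasi-likelihood model (R 4.3.3, 10 residual degrees of freedom, prior count 0.125 for fold changes). All q values are Storey values over all tested genes, from two-sided tests. The procedure was tested on simulated data. Alternatives were other normalization, filters, p adjustment, thresholds, groups in the fit and edgeR tests, DESeq2 1.42.0, and leaving out each animal.

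Genes given per animal were the 10 induced and 6 suppressed genes of largest fold with a symbol, called members of the lists, up to 3 members of smallest p from lists with fewer than 2 called, and a fixed set of receptor, target and surfactant genes. Other uncalled genes named (CEBPD, IRS2, CRISPLD2, FOXO3, ABCA3, NRP1, KDR, VEGFA, CCL2, NR1D1, TEF, CIART, ARNTL, SCGB3A2, SCGB1A1) were chosen after their values were seen. The members and lists were chosen with earlier results of these data known. Of 470 list symbols, 106 were unmatched and 359 were tested.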

Additional observations from a re-analysis of the deposited data

Results flagged for a closer look

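Of the named genes called at 6 h against saline, 12 differed in a direct edgeR test between 6 h and 5 d after Beta-Ac. Of all tested genes, 0.261% differed. This test shares the 6 h animals with the comparison against saline by which the genes were chosen. That choice favours a difference in the same direction, so the count of 12 is a description. Among transcription factors and regulators of the receptor and the clock, the log2 difference (6 h minus 5 d) was 3.35 for ZBTB16 (q = 0.00624), 3.08 for FKBP5 (q = 0.0278), 1.60 for PER1 (q = 0.0503) and 1.26 for HEY1 (q = 0.0503). Among metabolic genes it was 4.14 for NNMT (q = 0.00624), 1.27 for MAOA (q = 0.0132), 1.92 for PDK4 (q = 0.0903) and 1.53 for RRAGD (q = 0.0632). ADAMTS1, the secreted protease, differed by 1.81 (q = 0.0132), and ADRA2B, the adrenergic receptor, by 4.54 (q = 0.0903). PSCA, the epithelial membrane protein, had a difference of 3.03, which is a description because the gene passed the read filter through the 6 h animals. ST3GAL6, the sialyltransferase, was lower at 6 h than at 5 d (-0.89, q = 0.0632). The values for PSCA and ADRA2B rest on few reads at 5 d, with 4, 4 and 3 reads and 3, 3 and 4 reads in the 3 animals.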

How the results depend on the processing

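No paired analysis was possible because the labels give each animal its own number and no number shared between groups. The animals of each group are 3, the saline interval was not matched to 6 h by the labels, and drug, dose, time and animal series cannot be told apart against the clinical drug.

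Against saline, the 78 called genes (65 induced, 13 suppressed) were 19 (17, 2) with only the compared groups in the fit, 21 (20, 1) with the saline and early libraries, 247 (190, 57) by DESeq2, 204 (161, 43) by the exact test and 247 (195, 52) by the likelihood ratio test. Suppressed genes were 6 by Benjamini-Hochberg and 21 without the fold threshold. Added after seeing the data, the animal number term gave 4 (3, 1) and the unadjusted p 942 (696, 246). With 1 animal left out, calls ranged from 9 to 211, induced from 9 to 158 and suppressed from 0 to 53. The 0 is without 15-92, where 225 genes were lower at the unadjusted p and fold thresholds of edgeR. Against the clinical drug, the 1189 were 724 without a filter, 2389 without the fold threshold, 314 with only the compared groups, and 667 to 1971 with 1 animal left out. Against 5 d, the 46 were 29 by Benjamini-Hochberg, 9 with only the compared groups, 185 by DESeq2, and 5 to 98 with 1 animal left out. List medians with 1 animal left out ranged from -0.1835 to 0.009762 (immune activation), -0.1057 to -0.01102 (vascular), 0.1732 to 0.4688 (metabolism), -0.03035 to 0.1346 (transporters), 0.03047 to 0.1236 (brakes), 0.02311 to 0.4512 (immediate early) and 0.1505 to 0.2784 (ion transport). Medians near 0 changed sign for the clock (0.0276 without 15-92), cell cycle (0.1076 without 16-123), antioxidants (-0.06625 without 16-131), matrix (0.01795 without 17-254), morphogenesis (0.004088 without 16-113), transporters (without 15-92) and immune activation (without 16-113). Among called genes, the log2 fold changes that shrank most in proportion with the animal number term were those of LGI3 (1.48 to 0.87), ENSMMUG00000007333 (2.40 to 1.52), ENSMMUG00000016305 (-2.92 to -0.75) and ENSMMUG00000005891 (-2.61 to -0.79). Uncalled genes also shrank, such as SFTPC (0.68 to 0.14) and SGK1 (0.39 to 0.15). Uncalled fold changes changed sign for SGK1 (-0.03811 without 16-131, up to 0.6627), NR3C1 (0.027 without 16-113, down to -0.3211) and HSD11B2 (0.1483 without 17-254, down to -0.3931). The cause of these shifts was not tested. Genes with few reads in controls, such as NNMT, ADRA2B and PSCA, have fold changes limited by depth.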
